A study of Mus musculus with 16 samples.

Results

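The 8 genes described here encode the hypoxia-inducible factors and the proteins that set their activity: the alpha subunits Epas1 and Hif1a, their partner Arnt, the prolyl hydroxylases Egln1, Egln2 and Egln3, the asparagine hydroxylase Hif1an and the ubiquitin ligase subunit Vhl. They were taken by symbol from count files that list 23337 genes, and all 8 were among the 12952 genes tested. The genes were selected on their counts and fold changes in the same 16 libraries as well as on their roles, so the levels, fold changes and calls of the 8 genes are a description and not a test.

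Messenger RNA was sequenced from sorted live RosaYFP+ CD4+ T cells of C57BL/6 mice with the genotype Dgcr8f/f Tbet-/- CD4-cre. Every group, the control included, therefore lacks T-bet and carries a Cre-driven deletion, under a T cell promoter, of a protein needed to make most microRNAs. Cells from spleen and lymph nodes were activated for 3 days by antibodies to CD3 and CD28, with IL-4 present at 10 U/ml, and then kept for 2 days in 20 U/ml of IL-2. On day 1 and day 4 they received 500 nM of a synthetic microRNA, called a mimic: miR-23a, miR-24, miR-27a or a control mimic, with 4 libraries in each group. The labels give no age, no arm or sequence of the mimics, and do not say which libraries came from separate mice. The errors below therefore measure the spread between libraries, which may be technical. Most errors of fold changes come from a fit that removes differences between replicate numbers, so they measure only the spread left after that.

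Hypoxia-inducible factors are transcription factors of an alpha subunit and Arnt. In the presence of oxygen the Egln enzymes hydroxylate prolines of the alpha subunit, Vhl binds the hydroxylated protein and marks it for destruction, and Hif1an blocks its contact with coactivators. In T cells Hif1a is known for raising glycolysis, and much of the control of both alpha subunits lies in protein stability, which messenger RNA counts do not measure.

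The mature sequences of the 3p arms of the mouse microRNAs, from RefSeq on GRCm38.p6, are shown because their seeds (bases 2 to 8, in capitals) define the matches searched below. That the mimics carry these arms is an assumption.
mmu-miR-23a-3p: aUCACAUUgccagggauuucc
mmu-miR-24-3p: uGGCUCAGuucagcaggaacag
mmu-miR-27a-3p: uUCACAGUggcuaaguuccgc
Each seed is different, and those of miR-23a and miR-27a share their first 5 bases. An 8mer match in DNA letters is AATGTGAA for miR-23a, CTGAGCCA for miR-24 and ACTGTGAA for miR-27a, and its first or last 7 bases make a 7mer-m8 or 7mer-A1 match. Matches were read on the transcript strand, taking for each gene the 3-prime UTR with the most annotated bases (GENCODE M21, GRCm38), and every class is a description of letters, not a shown binding site.

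Epas1 (ENSMUSG00000024140, chr17:86753700-86833410, plus strand) holds 2 such matches in its 3-prime UTR of 2308 bases, both in exon 16 of 16, and neither is one of miR-24. They are shown with flanks in lower case and the match in capitals: the 8mer of miR-23a at chr17:86831934-86831941 and the 7mer-A1 of miR-27a at chr17:86831961-86831967.
Epas1 with miR-23a: ggcaaaaaagcAATGTGAAgaatcaactct
Epas1 with miR-27a: tctagggttacCTGTGAAgccacgcggtg
Any match was held by 25.3% of the 12002 genes searched for miR-23a, by 27% for miR-24 and by 29.8% for miR-27a, and an 8mer by 7.24%, 8.95% and 6.61%. In its coding sequence, exon 6 of Epas1 holds a 7mer-A1 match of miR-24 at chr17:86809688-86809694 and a 7mer-m8 match at chr17:86809743-86809749.
Epas1 coding, exon 6, 7mer-A1: atcatcatgtgTGAGCCAatccagcaccc
Epas1 coding, exon 6, 7mer-m8: gcaagactttcCTGAGCCgccacagcatg
At least 1 miR-24 match before the 3-prime UTR was held by 31.1% of the genes searched. Of miR-27a, 2 matches (7mer-m8) lie in the Epas1 coding sequence.

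Epas1 was the member that differed most between the mimics, and its level was lowest with miR-24 and highest with the control. In CPM, which are read counts scaled to a common library size (TMM), replicates 1 to 4 of the control stood at 749, 1299, 1655 and 2180. The miR-23a libraries stood at 547, 948, 690 and 786 CPM, the miR-27a libraries at 237, 631, 366 and 898 CPM, and the miR-24 libraries at 125, 331, 218 and 418 CPM. All 4 miR-24 libraries lay below all 4 control libraries, whereas 2 miR-23a libraries and 1 miR-27a library stood above the lowest control library, which is replicate 1. Groups that do not overlap, with miR-24 lower, were found for 2.74% of all genes. Control replicate 1 held 51474 gene reads, so that 1 read was worth 16.3 CPM and its Epas1 level rests on 46 reads. Without it, the Epas1 ranges of all 3 mimics lay below the control, as did 6.1% of all genes with miR-24, 5.6% with miR-27a and 4.83% with miR-23a. In bulk RNA, fewer cells with Epas1 and less Epas1 RNA per cell cannot be told apart.

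The fitted log2 fold change of Epas1 against control was -2.49 ± 0.23 (SE, n = 4 libraries per group) with miR-24, -1.55 ± 0.22 with miR-27a and -0.90 ± 0.22 with miR-23a. These come from edgeR's quasi-likelihood fit of all 16 libraries with the replicate number as a block, meaning that libraries of the same number are compared with each other. Within each of the 4 replicate numbers Epas1 was lower with each mimic than with the control, a pattern that 7.78% of all genes shared with miR-24, 10.8% with miR-27a and 6.72% with miR-23a. The same-number differences in log2-CPM were -2.58, -1.97, -2.93 and -2.38 with miR-24. With miR-27a they were -1.66, -1.04, -2.18 and -1.28, and with miR-23a -0.45, -0.45, -1.26 and -1.47. The mimic with the 8mer match in the Epas1 3-prime UTR, miR-23a, had the smallest of the 3 fitted differences, and the mimic without a match there the largest. The Epas1 coding sequence holds matches of miR-24 and miR-27a and 0 of miR-23a. How any of these matches relates to the Epas1 levels was not tested.

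Of the 8 members, 2 passed the threshold of an adjusted p under 0.05 over all genes with miR-24 (Epas1 and Vhl, both lower), 1 with miR-27a (Epas1, lower) and 0 with miR-23a. Over all 12952 genes edgeR called 4.56% with miR-24 (2.25% lower), 3.07% with miR-27a (1.32% lower) and 0.425% with miR-23a. With miR-23a, 1 member (Epas1) had an unadjusted p under 0.05 in edgeR, and DESeq2 with the same terms called that 1. DESeq2 called 7.94% of all genes with miR-24, 7.34% with miR-27a and 2.81% with miR-23a. Without the replicate block, Epas1 with miR-24 (-2.45 ± 0.43) was the only member call against control that was left, while Epas1 with miR-27a (-1.48 ± 0.41) and Vhl with miR-24 (-1.16 ± 0.29) did not pass. That fit called 0.849% of all genes with miR-24, 0.17% with miR-27a and 0.131% with miR-23a. The Epas1 calls with miR-24 and miR-27a stood in each of the 8 fits with the block that left out 1 library of their groups (-2.63 to -2.30 and -1.71 to -1.36), and without control replicate 2 Epas1 was also called with miR-23a.

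**Figure D1:**
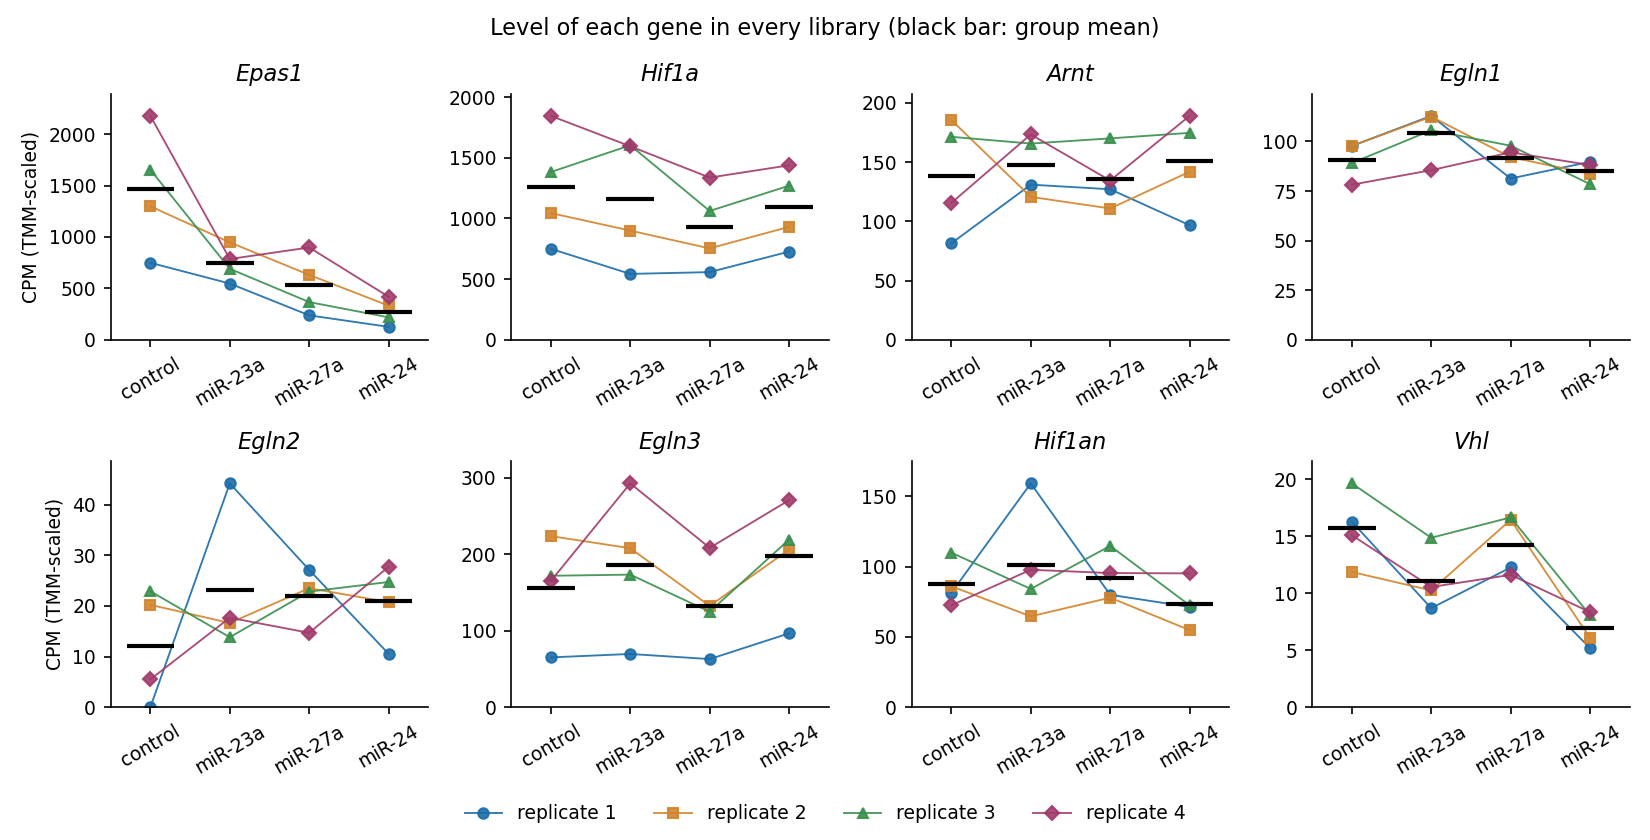
Level of each of the 8 genes in CPM (vertical axes, from 0) in the 4 groups, with 1 point per library, lines joining libraries of the same replicate number and black bars for group means. Epas1 is below its same-number control in every mimic library, Vhl is lowest with miR-24 for every number, and for Hif1a and Egln3 replicate 1 is lowest in each group.

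Direct comparisons between mimics gave the order of Epas1 levels: miR-24 lowest, then miR-27a, then miR-23a. Against miR-23a, miR-24 stood at -1.58 ± 0.22 and the libraries did not overlap (125 to 418 against 547 to 948 CPM), as for 4.78% of all genes. Against miR-27a it stood at -0.94 ± 0.22, with overlapping libraries and a lower level in all 4 same-number pairs (-0.92, -0.93, -0.75 and -1.10), as for 12.7% of all genes. Both differences passed the threshold with the block, and neither did without it, where 1.1% and 0.88% of all genes were called. The call against miR-27a was lost without miR-24 replicate 2 or 3 or miR-27a replicate 2 or 4, while that against miR-23a was kept in each of 8 such fits. miR-27a and miR-23a, neighbours in this order, differed by -0.64 ± 0.22, which did not pass except without miR-23a replicate 4. In replicate 4 alone, Epas1 was higher with miR-27a (898 CPM) than with miR-23a (786 CPM). Over all genes, edgeR called 5.38% between miR-24 and miR-23a (2.73% lower), 4.42% between miR-24 and miR-27a (2.62% lower) and 2.95% between miR-27a and miR-23a, where no member was called (2 at an unadjusted p under 0.05, 0 by DESeq2, which called 5.5% of all genes there).

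Hif1a (ENSMUSG00000021109), the other alpha subunit, did not pass the threshold with any of the mimics. It holds no match in its 3-prime UTR and a 7mer-m8 match of each of the 3 in its coding sequence. The gene lies at chr12:73901375-73947530 on the plus strand. Its control libraries stood at 749, 1044, 1382 and 1845 CPM in replicate order. The miR-24 libraries stood at 726, 930, 1269 and 1437 CPM, those of miR-23a at 542, 899, 1603 and 1594 CPM and those of miR-27a at 557, 752, 1061 and 1336 CPM. The groups overlapped throughout, and replicate 1 was the lowest library of each group. The log2 fold change of Hif1a was -0.43 ± 0.16 with miR-27a, -0.17 ± 0.16 with miR-24 and -0.16 ± 0.16 with miR-23a. Without the block the errors were wider, at -0.45 ± 0.36, -0.22 ± 0.36 and -0.13 ± 0.36, and none passed. With miR-27a Hif1a was lower in 4 of 4 same-number pairs, as were 10.8% of all genes, and by similar amounts (-0.43, -0.47, -0.38 and -0.47). With miR-24 it was also lower in 4 of 4 pairs (-0.04, -0.17, -0.12 and -0.36), as were 7.78% of all genes. A fit of the control and miR-27a libraries alone, which called 16.7% of all genes, called Hif1a. An antisense gene and a short stretch of another coding gene overlap Hif1a exons, and since the strand setting of the counting is not stated, their reads cannot be told from those of Hif1a.

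The spread of Epas1 followed the mimic and that of Hif1a followed the replicate number. Of the variance of log2-CPM over the 16 libraries, the mimic group held 70.1% for Epas1 and the replicate number 24.6%. For Hif1a the mimic group held 8.61% and the replicate number 86.7%. Egln3 was like Hif1a (10.8% and 82.6%) and Vhl like Epas1 (74.7% and 14.0%). For Arnt, Egln1, Egln2 and Hif1an the part that neither term held was between 44.9% and 58.6%. All these shares include control replicate 1, which held 0 reads of Egln2, 1 of Vhl and 4 of Egln3.

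Because both alpha subunits pair with Arnt, their levels were set side by side per kilobase of merged annotated exon. In control replicates 2 to 4 Epas1 stood above Hif1a, at a ratio of 1.31, 1.26 and 1.25. Control replicate 1 held 46 reads of each gene, so that its ratio of 1.05 reflects the exon lengths and cannot be told from equal levels. With miR-24 the ratio was 0.182, 0.376, 0.181 and 0.307, so that Hif1a exceeded Epas1 in all 4 libraries. With miR-27a it was 0.449, 0.885, 0.364 and 0.709, also below 1 in all 4. With miR-23a the ratio divided the libraries: 1.06 and 1.11 in replicates 1 and 2, and 0.454 and 0.520 in replicates 3 and 4. These ratios restate the Epas1 and Hif1a values and do not depend on how the libraries were scaled.

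**Figure D2:**
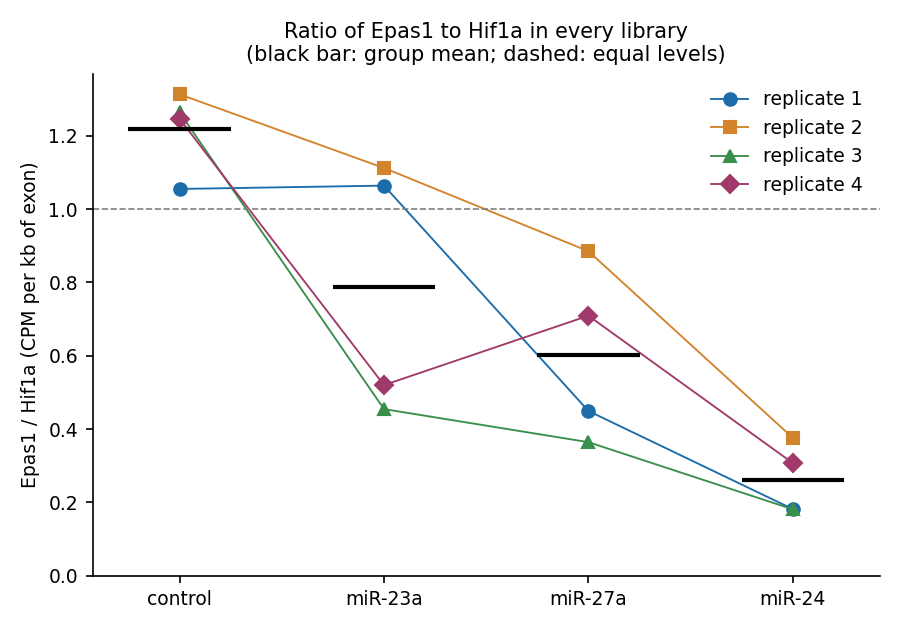
Ratio of Epas1 to Hif1a per kilobase of exon (vertical axis, from 0) in each library, by mimic group, with lines joining the same replicate number, black bars for group means and a dashed line at equal levels. Control replicates 2 to 4 lie above 1 and replicate 1, with 46 reads of each gene, close to it, the 4 miR-27a and the 4 miR-24 libraries below it, and miR-23a on both sides.

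Arnt (ENSMUSG00000015522, chr3:95434388-95497240, plus strand), the shared partner, showed no common direction. It averaged 138 ± 48.6 CPM (SD, n = 4) in the control, and its libraries ran from 81.4 to 186 CPM there, from 96.7 to 189 CPM with miR-24, from 111 to 170.1 CPM with miR-27a and from 121 to 173 CPM with miR-23a. The 81.4 CPM is control replicate 1 and rests on 5 reads. The groups overlapped, and the log2 fold changes lay between -0.09 ± 0.22 (miR-27a) and 0.04 ± 0.22 (miR-24). Per kilobase of exon the median level of Arnt was below that of both alpha subunits: over the 15 libraries other than control replicate 1 it was 17.7 CPM per kilobase, against 180.0 for Hif1a and 113 for Epas1. The distance to Epas1 differed between groups: the ratio of Epas1 to Arnt was 13.2, 10.03, 13.8 and 27.0 in the control libraries and 1.85, 3.35, 1.78 and 3.17 in those of miR-24. The 13.2 is from control replicate 1, with its 5 reads of Arnt. The Arnt 3-prime UTR holds a 7mer-m8 match of miR-27a.

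Among the prolyl hydroxylases, none passed the threshold with any mimic against control. Egln1 (ENSMUSG00000031987, chr8:124908587-124949324, minus strand), regarded as the main oxygen sensor of the pathway, ran from 78.2 to 113 CPM over 15 libraries and stood at 90.7 ± 9.27 CPM in the control, 84.98 ± 5.05 with miR-24, 91.4 ± 7.16 with miR-27a and 104 ± 12.9 with miR-23a. The control mean includes control replicate 1, with 6 reads of Egln1. The Egln1 3-prime UTR holds an 8mer match of miR-27a (exon 5 of 5, chr8:124908898-124908905, minus strand). It is shown here because the level of Egln1 with that mimic was close to the control, at a log2 fold change of 0.04 ± 0.17.
Egln1 with miR-27a: tcctggaggtcACTGTGAAaacaaacaaac
Egln3 (ENSMUSG00000035105, chr12:54178981-54203860, minus strand), itself a gene that hypoxia induces in many cells, holds no match in its 3-prime UTR. Its libraries in replicate order stood at 65.1, 224, 172 and 165 CPM in the control, 96.6, 206, 219 and 271 with miR-24, and 62.9, 132, 125 and 208 with miR-27a. Replicate 1 was the lowest of every group, and in the control it held 4 reads of Egln3. Egln3 was higher with miR-24 than with miR-27a in 4 of 4 same-number pairs (0.61 ± 0.19), as were 13.5% of all genes. The difference did not pass in edgeR with TMM scaling. It did with DESeq2 or with RLE scaling, which called 7.71% and 4.36% of all genes. Without the block the difference was 0.58 ± 0.41 and did not pass. The log2 fold change of Egln3 against control was 0.33 ± 0.20 with miR-24, -0.27 ± 0.20 with miR-27a and 0.17 ± 0.20 with miR-23a. Without the block each of these errors was 0.42.

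Egln2 (ENSMUSG00000058709, chr7:27158658-27166802, minus strand) was the scarcest hydroxylase, with 36 to 493 reads in 15 libraries and 0 in control replicate 1, where 3 reads would be 48.8 CPM and a level like that of the other libraries would not be seen. The other control libraries stood at 20.2, 22.9 and 5.49 CPM, and those of the mimics ranged from 10.5 to 44.2 CPM. The log2 fold changes were 0.43 to 0.48 with errors of 0.46 to 0.48, so that a difference of this size could not be told from none. The libraries spread widely within groups, and neither the mimic nor the replicate number held 58.6% of the Egln2 variance. That share includes control replicate 1, whose 0 reads gave a log2-CPM of -2.05, beside 2.52 in control replicate 4. It is therefore not a measure of Egln2 alone. Its short 3-prime UTR of 498 bases holds an 8mer match of miR-23a (exon 6 of 6, chr7:27158792-27158799, minus strand).
Egln2 with miR-23a: ctccggcctggAATGTGAAgtgactcccca
With miR-23a the highest Egln2 library was replicate 1 (44.2 CPM) and the other 3 stood between 13.8 and 17.7 CPM.

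Hif1an (ENSMUSG00000036450, chr19:44562850-44576274, plus strand), the asparagine hydroxylase, stood at 87.5 ± 16.01 CPM in the control, 73.5 ± 16.6 with miR-24, 92.1 ± 17.1 with miR-27a and 101 ± 40.9 with miR-23a, with overlapping libraries in every comparison. The control mean includes control replicate 1, with 5 reads of Hif1an. The Hif1an fold changes against control were -0.33 ± 0.24 with miR-24, 0.11 ± 0.25 with miR-23a and 0.00 ± 0.24 with miR-27a, and none passed. Hif1an has the longest 3-prime UTR of the 8 genes (5116 bases), with an 8mer match of miR-23a (exon 8 of 8, chr19:44574891-44574898) and a 7mer-m8 and a 7mer-A1 match of miR-24.
Hif1an with miR-23a: tctcctttcatAATGTGAActtctcaagga
So 3 members hold an 8mer of miR-23a in the 3-prime UTR, and with that mimic Epas1 stood at -0.90, Hif1an at 0.11 and Egln2 at 0.48 ± 0.48.

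Vhl (ENSMUSG00000033933, chr6:113623959-113631633, plus strand), which recognises the hydroxylated alpha subunits, was lower with miR-24. The control libraries stood at 16.3, 11.9, 19.6 and 15.1 CPM and the miR-24 libraries at 5.18, 6.09, 8.07 and 8.34 CPM. No miR-24 library overlapped the control, as for 2.74% of all genes with miR-24 lower, and control replicate 1 rests there on 1 read. The miR-24 libraries also did not overlap miR-23a (8.69 to 14.9 CPM) or miR-27a (11.6 to 16.7 CPM). Against these mimics 4.78% and 5.47% of all genes were lower with miR-24 without overlap. The log2 fold change of Vhl with miR-24 was -1.07 ± 0.26 against control and -1.03 ± 0.25 against miR-27a, both past the threshold with the replicate block. Without the block neither passed (-1.16 ± 0.29 and -1.03 ± 0.28). Against miR-23a the value was -0.67 ± 0.25, which did not pass. With miR-27a against control Vhl stood at -0.04 ± 0.27 and with miR-23a at -0.40 ± 0.26.

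These Vhl values rest on few reads, 31 to 219 in 15 libraries and 1 in control replicate 1. When control replicate 3 or 4, or miR-24 replicate 2 or 3, was left out, the call against control was lost, while the log2 fold change stayed between -1.22 and -1.01, and the call against miR-27a was lost without miR-24 replicate 1, 2 or 3 or miR-27a replicate 1, 2 or 3. A fit of the 2 groups compared did not call Vhl in either comparison, and the genome holds a processed pseudogene of Vhl, so the count is less certain. Vhl holds a 7mer-A1 match of miR-24 near the end of its 3-prime UTR (bases 1954 to 1960 of 2064, chr6:113631523-113631529) and an 8mer of miR-24 in its coding sequence (exon 3 of 3, chr6:113629522-113629529).
Vhl with miR-24, 3-prime UTR: gagttatgaaaTGAGCCActtgtcctggg
Vhl with miR-24, coding: acatacagcgaCTGAGCCAagagcaccttg
Hif1an also holds an 8mer of miR-24 in its coding sequence, beside its 3-prime UTR matches, and did not pass with that mimic.

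**Figure D3:**
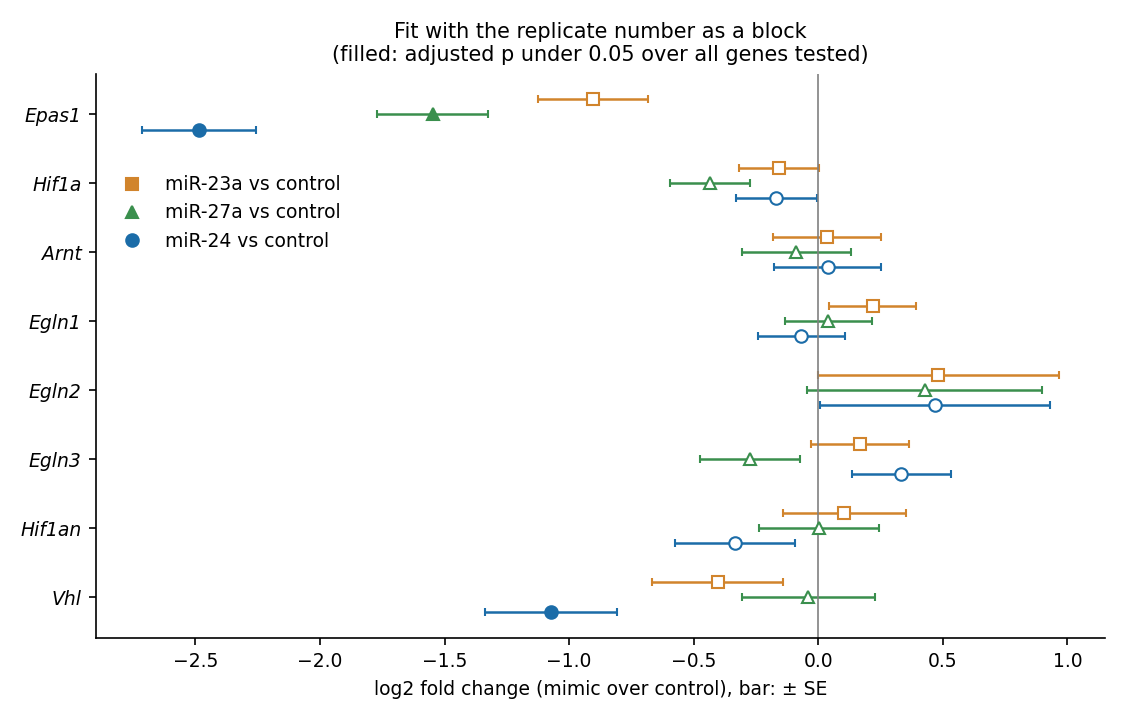
Log2 fold change of each of the 8 genes (rows) with each mimic over control, with bars of 1 SE from the fit with the replicate block and filled symbols for an adjusted p under 0.05 over all genes. Epas1 is lower in the order miR-24 (-2.49), miR-27a (-1.55), miR-23a (-0.90), Vhl is lower with miR-24 (-1.07), and the other 6 genes lie between -0.43 and 0.48.

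The median log2 fold change of the 8 members was -0.12 with miR-24, -0.06 with miR-27a and 0.07 with miR-23a, beside 0.04, 0.02 and 0.04 over all genes tested. The 3 comparisons with control share the control libraries. The genes whose log2-CPM followed Epas1 most closely over the 15 libraries other than control replicate 1, among 8069 other genes with a mean log2-CPM of at least 3, were Rora (Pearson r = 0.97), a nuclear receptor, Rbl2 (0.92), a pocket protein that restrains the cell cycle, Plcb4 (0.92), a phospholipase, Fam117b (0.90) and Slain1 (0.89), a microtubule-associated protein. The points share libraries and mimic groups, and these correlations are given as a description. Rora averaged 78.5 CPM in the control, 52.1 with miR-23a, 36.3 with miR-27a and 21.8 with miR-24. This is the order of Epas1, which the choice of Rora by its correlation with Epas1 made likely. Among the members, the correlation with Epas1 was 0.65 for Vhl, 0.51 for Hif1a, 0.38 for Egln3 and -0.30 for Egln2.

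The other genes of the pathway were followed in 4 lists taken from general knowledge of the pathway, drawn up with earlier results of these data known. Of the partners, turnover factors and coactivators, 25 were in the files and 24 tested. With miR-27a 1 of the 24 was called, beside 3.07% of all genes, a share near that background. It was Hsp90aa1, a chaperone that stabilises alpha subunits, which fell from 767 ± 121 to 453 ± 83.9 CPM (log2 fold change -0.78 ± 0.18, edgeR adjusted p = 0.0248). The miR-27a libraries (357 to 561 CPM) did not overlap the control (677 to 947 CPM). With control replicate 1 left out, 5.6% of all genes were lower with miR-27a without overlap. With miR-24 and miR-23a edgeR called 0 of these 24 (4 at an unadjusted p under 0.05 in each, and 1 and 0 by DESeq2). Hif3a, a further alpha subunit gene, and the Vhl partners Cul2, Tceb1 and Tceb2 did not pass with any mimic.

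Of 20 glycolysis genes that the factors induce, 4 passed with miR-24, 3 higher and 1 lower, and edgeR called 0 with miR-23a and 0 with miR-27a (3 and 6 at an unadjusted p under 0.05, 0 and 1 by DESeq2). Over all genes 4.56% were called with miR-24, 0.425% with miR-23a and 3.07% with miR-27a. A difference between the mimics over the list was not tested. Hk2, the hexokinase of the first step, rose from 65.6 ± 27.3 to 134 ± 28.9 CPM (0.96 ± 0.25, edgeR adjusted p = 0.0344), and its groups overlapped (103 to 172 against 48.8 to 106 CPM). Slc16a3, a lactate exporter, was called higher with miR-24 although its groups overlapped: it stood at 16.3, 8.04, 9.46 and 5.03 CPM in the control and at 3.01, 18.2, 29.8 and 46.9 CPM with miR-24 (1.74 ± 0.47, edgeR adjusted p = 0.0432), and its value in control replicate 1 rests on 1 read. Aldoc, an aldolase at very low level, rose from 1.05 ± 1.23 to 4.54 ± 2.65 CPM (1.88 ± 0.46, edgeR adjusted p = 0.0295). The Aldoc groups overlapped (2.30 to 8.34 against 0 to 2.74 CPM), and the 0 is from control replicate 1, where such a level could not be seen. Pgk1, phosphoglycerate kinase, fell from 304 ± 25.03 to 145 ± 63.5 CPM without overlap of the libraries (-1.11 ± 0.23, edgeR adjusted p = 0.00879). Groups without overlap, with miR-24 lower, were found for 2.74% of all genes. Pgk1 has pseudogene copies in the genome, so its count is less certain. The list's median was 0.35 with miR-24, 0.39 with miR-27a and 0.33 with miR-23a, beside 0.04, 0.02 and 0.04 over all genes tested. Of the 20 fold changes 14, 15 and 16 were positive, and the share of positive ones over all genes was not computed. All 3 medians use the same control libraries, so they are not independent, and a shift of the list was not tested.

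Of 29 tested genes that hypoxia induces in many cell types (33 in the files), 3 passed with miR-24, 3 with miR-27a and 0 with miR-23a (6 at an unadjusted p under 0.05, 1 by DESeq2), beside 4.56%, 3.07% and 0.425% of all genes. Ero1l, an oxidase of protein folding, fell with both: it stood at 342, 367, 649 and 518 CPM in the control, at 204, 272, 229 and 355 CPM with miR-24 and at 134, 185, 262 and 288 CPM with miR-27a. The log2 fold change of Ero1l was -0.76 ± 0.21 (edgeR adjusted p = 0.0487) and -1.10 ± 0.21 (edgeR adjusted p = 0.0103). Bhlhe40, a transcriptional repressor of activated T cells, rose with both, by 1.36 ± 0.31 with miR-24 (edgeR adjusted p = 0.0222) and 1.24 ± 0.31 with miR-27a (edgeR adjusted p = 0.0390), with mimic libraries spread from 235 to 1378 and from 366 to 1511 CPM that overlapped the control (213 to 427 CPM). Ndrg1 was called higher with miR-24, by 0.99 ± 0.26 (edgeR adjusted p = 0.0397), although its groups overlapped (24.2 to 77.5 against 16.3 to 43.1 CPM). The 16.3 CPM is control replicate 1 and rests on 1 read. Mxi1, an antagonist of MYC, rose with miR-27a from 121 ± 30.9 to 238 ± 47.5 CPM (0.88 ± 0.20, edgeR adjusted p = 0.0226). The medians of this list, 0.03, 0.11 and -0.01 with miR-24, miR-27a and miR-23a, were near those over all genes.

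Genes described elsewhere as answering mainly to EPAS1 were few: of 18 in the files 11 were tested, and edgeR called 1 with miR-24, higher (0 by DESeq2), beside 4.56% of all genes, which for a list this short is no result about the list. With miR-23a and miR-27a edgeR called 0 of the 11 (1 and 3 at an unadjusted p under 0.05, 0 and 0 by DESeq2). Of the 12 calls in the 4 lists, 12 were lost without the replicate block (edgeR adjusted p from 0.0745 to 0.648) and 12 without control replicate 3, and each was lost in 2 to 7 of the 8 fits that left out 1 library.

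**Figure D4:**
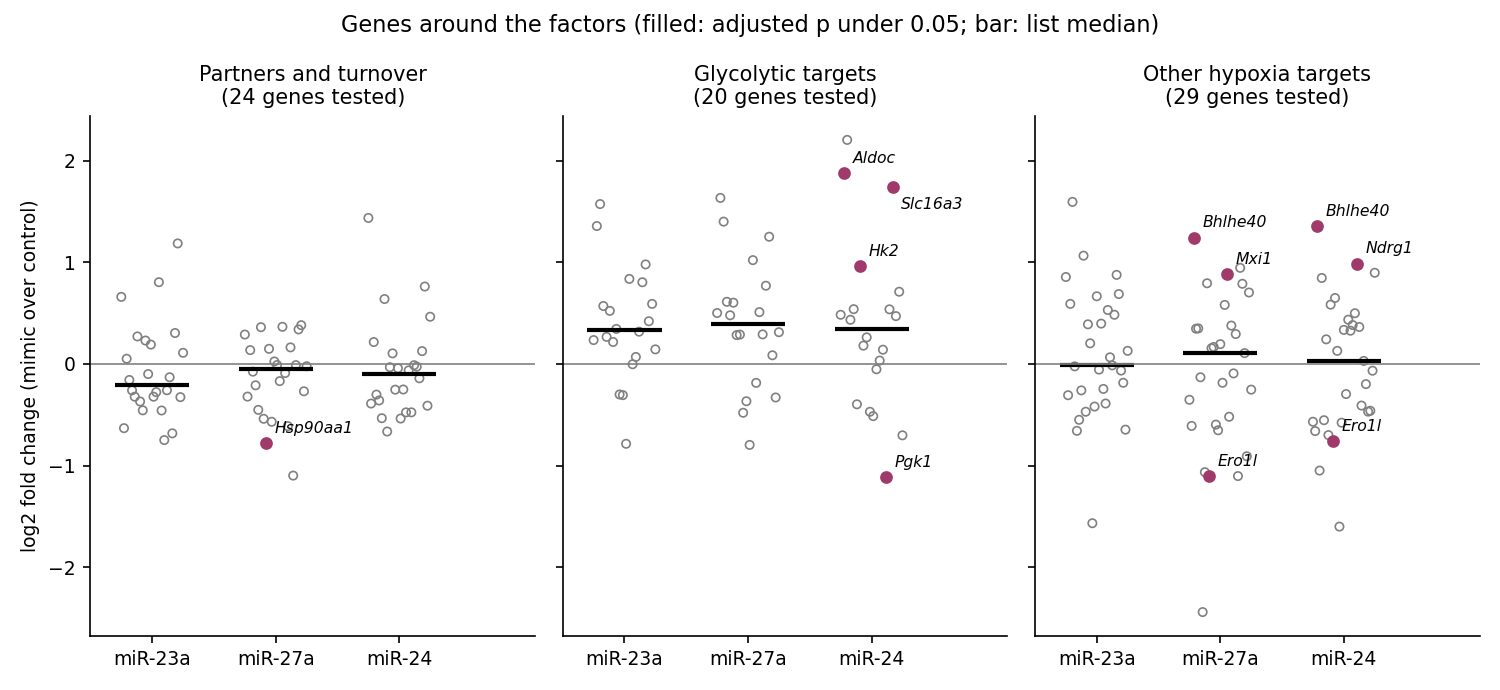
Log2 fold change over control of each tested gene of 3 pathway lists, the partners and turnover factors, the glycolysis genes and the other hypoxia genes (1 panel each), with each mimic, with filled named points for an edgeR adjusted p under 0.05 in the fit with the replicate block and black bars for list medians. In these lists 0 genes pass with miR-23a, and the genes that pass with miR-24 or miR-27a lie on both sides of 0.

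The libraries carried the transcripts of T cells. Over 15 libraries gene reads ranged from 2120408 to 13714841, Cd3e from 534 to 1083 CPM and Cd4 from 297 to 947 CPM. Cd3e averaged 896 ± 187 CPM in the control and 605 ± 62.6 CPM with miR-24, and the 12 T cell markers summed to 3679 to 5548 CPM and 3334 to 4387 CPM. Endothelial cells are a known site of Epas1 expression: their 10 markers summed to 58.8 to 123 CPM in the control, 42.3 to 75.3 with miR-24, 49.4 to 109 with miR-23a and 102 to 183 with miR-27a, almost all of it Pecam1, which T cells also express, and the endothelial cadherin gene Cdh5 had 0 or 1 reads per library. Macrophage, erythroid, B cell and granulocyte lists each summed to at most 24.6 CPM in every library, the CD8 and NK cell list to 11.5 to 110 CPM, and the dendritic list, which holds Ccr7, to 130 to 970 CPM. The share of gene reads on Rn45s, a precursor of ribosomal RNA, was 0.300% to 4.41% in the control, 1.65% to 19.1% with miR-24, 1.17% to 10.2% with miR-27a and 1.77% to 10.5% with miR-23a, and its part in the Epas1 and Vhl values was not tested. Dgcr8 transcripts stood at 32.5 to 58.4 CPM and Tbx21 at 0 to 5.20 CPM, and gene counts cannot show a deleted exon.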

How the data were processed

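Per the labels' protocols, libraries were made from 1 ng of RNA of 150000 to 800000 sorted cells with the NuGEN Ovation V2 kit and read as single 50-nt reads, 4 libraries per lane. The authors deposited raw read counts for 23337 gene symbols per library. The 5 summary lines, 64.6% to 77.6% of reads, were left out. The build mm10 and the tools TopHat, Bowtie2 and DESeq are listed in the submitters' processing notes. The counter, annotation and strand setting are not given in the sources used here.

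Groups and replicate numbers came from sample titles. Genes passing filterByExpr were scaled by TMM and fitted in edgeR 4.0.16 (R 4.3.3) with group and replicate number as terms, using robust quasi-likelihood F tests (two-sided). P-values were adjusted over 12952 genes by Benjamini-Hochberg, with a threshold of 0.05. The block follows the rule by which the genes were chosen. Deviations from group means of same-numbered libraries correlated above 0.1 in 4 of 4 pairs for control with miR-27a (lowest 0.198), but in 3 of 4 for control with miR-24 (lowest 0.03) and with miR-23a (lowest -0.12), so the labels and this check do not establish the pairing, and results without the block stand beside the calls. log2-CPM used a prior count of 2. Levels between genes are CPM per kilobase of merged GENCODE M21 exons. Of the genes tested, 11689 matched GENCODE by symbol and 1076 by an older symbol. The fit of miR-24 against control was run on simulated counts. These held no differences between replicate numbers, so that run cannot show whether the block is right for these data. The members and lists were chosen with earlier results of these data known. Named genes are the 8 members, up to 4 called genes per list, direction and comparison with control, the 5 genes most correlated with Epas1, and Cd3e, Cd4, Dgcr8 and Tbx21; Cdh5, Pecam1, Ccr7, Rn45s, Hif3a, Cul2, Tceb1 and Tceb2 were named after their values were seen. Of the genes and matches that these rules pick, 1 gene and 1 sequence match are not reported here. Alternatives were no block, RLE scaling, DESeq2 1.42.0, no filter, 2 groups only and leaving out each library.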

Additional observations from a re-analysis of the deposited data

How the results depend on the processing

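The fold changes of the 8 members moved by less than 1 SD between libraries under all alternatives run, and no called member or list gene changed sign. That margin is wide, and members that were not called could change sign. Leaving out 1 library, fold changes with miR-23a ran from -0.16 to 0.31 for Arnt, from -0.14 to 0.26 for Hif1an and from -0.05 to 0.37 for Egln3. Those of Egln2 ran from 0.04 to 0.84 and kept their sign. Counts of calls were not stable. Without the replicate block, called members went from 2 to 1 (miR-24 against control), 1 to 0 (miR-27a against control), 2 to 0 (miR-24 against miR-27a) and 1 to 0 (miR-24 against miR-23a), list calls went to 0 in every comparison that had any, and genes called over all genes numbered 17, 110 and 22 for miR-23a, miR-24 and miR-27a against control, in place of 55, 591 and 398, and 114, 142 and 71 for miR-24 against miR-27a, miR-24 against miR-23a and miR-27a against miR-23a, in place of 572, 697 and 382. The same fit without control replicate 1, added after the data were seen, gave 15, 106 and 29 genes against control, 1 member with miR-24, 0 with miR-27a and 0 in the lists. DESeq2 called 364, 1029 and 951 genes against control and 999, 1060 and 713 between mimics, 1 member with miR-23a, and in the lists 1 turnover gene with miR-24 and 2 with miR-27a, 1 glycolytic gene with miR-27a, 1, 5 and 6 hypoxia targets with miR-23a, miR-24 and miR-27a and 0 EPAS1-leaning targets with miR-24. A fit of the 2 groups compared called 34 genes with miR-23a, 1883 with miR-27a and 148 between miR-24 and miR-27a, 1 member with miR-24, 2 with miR-27a (Epas1 and Hif1a) and 1 between miR-24 and miR-27a, and with miR-27a 3 turnover, 8 glycolytic, 6 hypoxia and 2 EPAS1-leaning genes.

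Leaving out 1 library at a time, members called ranged from 0 to 1 (miR-23a), 1 to 2 (miR-24) and 1 to 1 (miR-27a) against control, and 0 to 2, 1 to 1 and 0 to 1 for miR-24 against miR-27a, miR-24 against miR-23a and miR-27a against miR-23a. Turnover genes called ranged from 0 to 3 with miR-24 and 0 to 1 with miR-27a, glycolytic genes from 0 to 5 and 0 to 2, hypoxia targets from 0 to 5 with both, EPAS1-leaning targets from 0 to 1 and 0 to 2, and genes over all from 12 to 334, 123 to 1490 and 51 to 1010 against control and 190 to 737, 262 to 796 and 127 to 413 between mimics. Depth limits every gene in control replicate 1, where 1 read is worth 16.3 CPM.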
